A study of Tachysurus vachellii with 12 samples.

Results

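Among the named genes of the fish liver transcriptome, 40 assembled components stood higher in every hypoxia pool than in any control pool and were also graded across the 3 hypoxia pools, highest in pool a, intermediate in pool b and lowest in pool c. They were picked by these measured values. A component had to carry a gene name, reach a mean of 5 CPM (counts of a component per 1000000 counts of its library) under hypoxia, follow the order a, b, c with pool a at least 2 times pool c, and have its lowest hypoxia value at least 1.5 times its highest control value. Of 34744 assembled components, 15051 carry a name and 44 met these thresholds. 4 of these (Ppm1k, TDH, SLC43A2 and Prodh) were left out by name, which leaves 40 components with 38 distinct names, since Sik2 names 3 of them. A further 20 components without a name met the same thresholds.

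The animals were juvenile catfish of the species Tachysurus vachellii (Pelteobagrus vachelli in the title of the series). Control pools (a, b and c of the label P0) were livers of fish taken at 6.8 mg/L oxygen, and hypoxia pools (a, b and c of P4) were livers of fish taken after 4 h at 0.7 mg/L, reached by bubbling nitrogen. A pool combines 5 livers, so the spread between individual fish is not visible. Fish of both groups came from the same 3 aquaria and were fed the same compound feed, with no other treatment than anaesthesia in eugenol before dissection, and no label ties a letter to an aquarium, to an order of sampling or to a batch. Total mRNA counts lay between 32652402 and 35852327 per library, where 3 counts equal 0.0837 to 0.0919 CPM, and the smallest member count was 55 in hypoxia c and 4 in a control. Of the liver's own transcripts, 14 of 17 hepatocyte markers were found, with a summed level of 83363 to 107013 CPM in the 6 libraries.

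When oxygen falls, the hypoxia-inducible factors (HIF) raise genes of glycolysis, oxygen transport and their own hydroxylases. Stress and energy shortage also reach the liver through hormones, glucocorticoids and those that act through cyclic AMP, which in mammals raise gluconeogenesis, amino acid uptake and breakdown and lipolysis. Salt-inducible kinases, CREM, NR4A1, SGK1 and PCK1 belong to the latter response in mammals. They are named here because members carry these names, so the match says nothing about that response. Of the 29 tested genes listed below for it, 5 are members. Others, FKBP5 and Tsc22d3 among them, were not called higher in the test given below. Whether that response has a part in the gradient was not tested. The results are ordered by role.

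**Figure D1:**
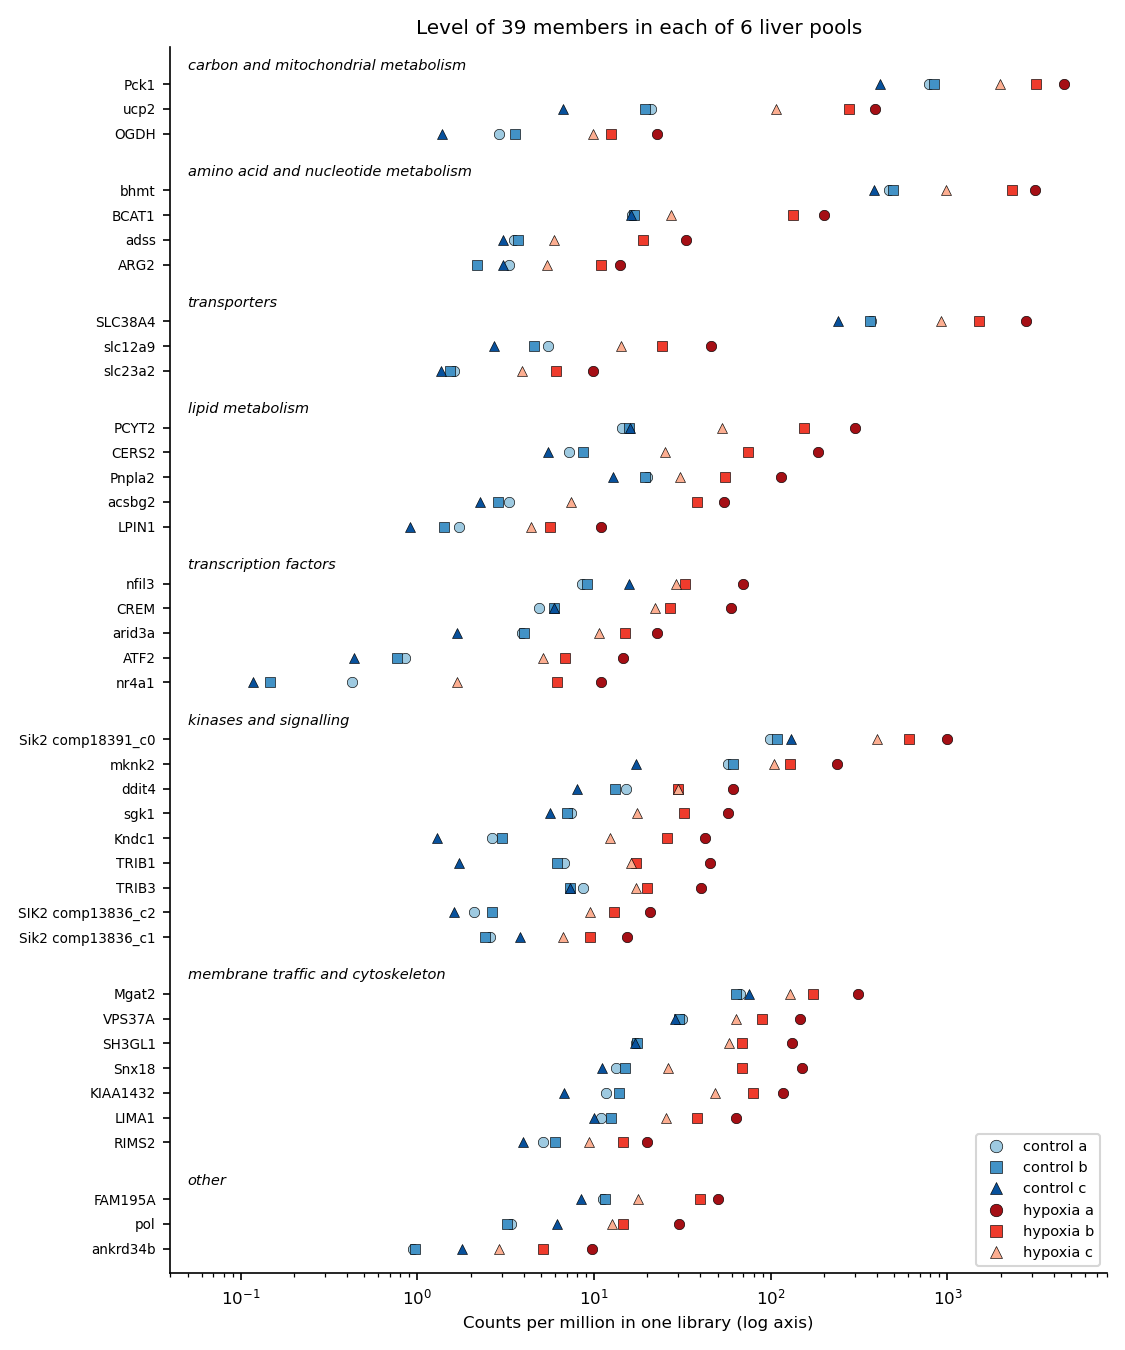
Level of 39 of the 40 members in CPM (log axis) in 3 control pools (blue) and 3 hypoxia pools (red), with circles, squares and triangles for pools a, b and c, grouped by role. The order of the red symbols and their separation from the blue ones were fixed by the choice of members; the order of the blue symbols was not.

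The enzymes of carbon metabolism and the mitochondrion were 3 of the members. Pck1 (comp15249_c0), the cytosolic enzyme that commits oxaloacetate to gluconeogenesis, measured 783, 834 and 414 CPM in the control pools. In the hypoxia pools it measured 4588, 3182 and 1991 CPM, each time with pools a, b and c listed in turn. The groups do not overlap, control c and hypoxia c are the low pools of their groups, and the highest pool exceeded the lowest 2.02-fold in control and 2.3-fold under hypoxia. Per length Pck1 was the most abundant member, with a mean of 378 transcripts per 1000000 (TPM) in control and 1862 TPM under hypoxia. The component named ucp2 (comp13563_c0), a mitochondrial carrier that the deposited annotation calls uncoupling protein 1, measured 20.9, 19.3 and 6.7 CPM in the control pools and 389.9, 277 and 107 CPM in the hypoxia pools. Its lowest hypoxia pool stood 5.1 times above its highest control. OGDH (comp15081_c2), the first subunit of the 2-oxoglutarate dehydrogenase of the citric acid cycle, rose from 2.89, 3.55 and 1.37 CPM to 22.8, 12.4 and 9.9 CPM, and here hypoxia b lay close to c.

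Members that handle amino acids and nucleotides numbered 5, and 4 are described here. In each of these 4, hypoxia b was nearer to a than to c on the log2 scale. BCAT1 (comp12654_c0), which transaminates leucine, isoleucine and valine, had controls of 16.4, 16.8 and 16.2 CPM and hypoxia values of 199.7, 133 and 27.3 CPM. Its hypoxia c pool was only 1.66 times the control mean while hypoxia a was 12.1 times, so almost all of its rise was in pools a and b. The abundant bhmt (comp12031_c0), which remethylates homocysteine with betaine, measured 465, 493 and 386 CPM in control and 3138, 2328 and 984 CPM under hypoxia, at a mean of 1622 TPM. The purine enzyme adss (comp15207_c0), which starts the conversion of IMP to AMP, went from 3.53, 3.69 and 3.07 CPM to 33, 18.9 and 5.91 CPM. ARG2 (comp55959_c0), the mitochondrial arginase, was the smallest of these, with 3.32, 2.17 and 3.04 CPM in control and 14, 11 and 5.39 CPM under hypoxia. Their ratios of hypoxia a to c ran from 2.6 to 7.32.

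There were 3 transporters. SLC38A4 (comp17446_c0), a sodium-coupled amino acid transporter that is abundant in mammalian liver, measured 371, 364 and 239 CPM in control and 2775, 1501 and 924 CPM under hypoxia, or a mean of 559 TPM. The vitamin C transporter slc23a2 (comp9572_c0) rose from 1.61, 1.52 and 1.36 CPM to 9.88, 6.11 and 3.92 CPM. The component named slc12a9 (comp19348_c3), a cation-chloride cotransporter that the annotation calls SLC12 member 2, rose from 5.46, 4.6 and 2.73 CPM to 45.7, 24.3 and 14.2 CPM. In all 3 the steps from a to b and from b to c were alike in size, between 1.56-fold and 1.88-fold.

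In lipid metabolism 5 members were found, and acsbg2 and CERS2 among them shared the steepest gradients with BCAT1. CERS2 (comp16148_c0), a ceramide synthase, measured 7.18, 8.71 and 5.47 CPM in control and 185, 74.4 and 25.3 CPM under hypoxia, a ratio of hypoxia a to c of 7.3 (95% exact counting interval 6.79 to 7.86). The acyl-CoA synthetase acsbg2 (comp13227_c0) rose from 3.32, 2.85 and 2.25 CPM to 54.3, 38.2 and 7.41 CPM, a ratio of 7.32 (6.4 to 8.41). PCYT2 (comp14365_c0), which makes CDP-ethanolamine for phosphatidylethanolamine, had level controls of 14.3, 15.7 and 15.9 CPM and hypoxia values of 299, 155 and 53.1 CPM. In these 3 genes hypoxia a was far above hypoxia c although their controls agreed within 1.59-fold. Pnpla2 (comp14866_c0), the adipose triglyceride lipase, rose from 20, 19.5 and 12.8 CPM to 115, 55.3 and 30.5 CPM. LPIN1 (comp15983_c1), a phosphatidate phosphatase that is also a transcriptional coactivator in mammals, rose from 1.73, 1.41 and 0.906 CPM to 10.9, 5.61 and 4.41 CPM and was the lowest member per length, at a hypoxia mean of 3.44 TPM. These intervals cover counting error between single libraries and say nothing of the spread between fish.

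Of the 5 transcription factors, 4 had hypoxia b nearer to c than to a on the log2 scale. CREM (comp20160_c4), the cyclic AMP response element modulator, measured 4.91, 5.9 and 5.9 CPM in control and 59.2, 26.8 and 22 CPM under hypoxia. The bZIP repressor nfil3 (comp14406_c0) measured 8.52, 9.15 and 15.8 CPM in control, where pool c was the highest, and 70, 32.5 and 29.1 CPM under hypoxia. ATF2 (comp18509_c0), another bZIP factor, rose from 0.852, 0.762 and 0.438 CPM to 14.6, 6.81 and 5.17 CPM, a separation of 6.07 between the nearest pools. In these 3 genes hypoxia a stood apart and hypoxia b and c lay close together. The DNA-binding factor arid3a (comp15480_c0) rose from 3.89, 4.03 and 1.67 CPM to 22.7, 14.9 and 10.7 CPM. The exception was nr4a1 (comp10891_c0), an immediate early nuclear receptor, with 0.426, 0.147 and 0.117 CPM in control and 10.9, 6.14 and 1.68 CPM under hypoxia. Its control c value rests on 4 counts, and its ratio of hypoxia a to c of 6.5 carries the wide interval of 4.88 to 8.79.

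Kinases and signalling genes were the largest role, with 9 components. Sik2 (comp18391_c0), a salt-inducible kinase that in mammals restrains cyclic AMP-driven transcription by phosphorylating CRTC coactivators, measured 99.5, 109 and 131 CPM in control and 996, 603 and 399 CPM under hypoxia. Its controls ran in the opposite order to its hypoxia pools. The other components of that name, comp13836_c2 and comp13836_c1, measured 20.8, 13 and 9.43 CPM and 15.3, 9.51 and 6.68 CPM under hypoxia, against controls of 2.1, 2.64 and 1.61 CPM and 2.59, 2.4 and 3.83 CPM. Both come from 1 assembled cluster and may be pieces of 1 transcript. Steps from pool a to pool b were nearly the same in all 3, at 1.65-fold, 1.6-fold and 1.61-fold.

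The kinase sgk1 (comp15718_c0), named for its induction by serum and glucocorticoids in mammals, rose from 7.42, 7.04 and 5.64 CPM to 57.4, 32.3 and 17.4 CPM. The pseudokinases TRIB1 (comp11584_c1) and TRIB3 (comp11487_c0) reached 45.1, 17.3 and 16.1 CPM and 40.5, 20 and 17.3 CPM under hypoxia. Their controls were 6.78, 6.15 and 1.72 CPM for TRIB1 and 8.64, 7.3 and 7.33 CPM for TRIB3, so control c was low in the first and level with control b in the second. The HIF target ddit4 (comp13886_c0), an inhibitor of mTORC1, rose from 15.2, 13.2 and 8 CPM to 61, 30 and 29.7 CPM. In ddit4, TRIB1 and TRIB3 hypoxia b and c were within 1.16-fold and the gradient was a difference between pool a and the other two. Kndc1 (comp17605_c0), which carries a kinase-like domain and a guanine nucleotide exchange domain, rose from 2.65, 3.02 and 1.29 CPM to 42.5, 25.9 and 12.3 CPM. The eIF4E kinase mknk2 (comp11682_c0) measured 57.6, 61.2 and 17.3 CPM in control and 238, 128 and 104 CPM under hypoxia, and its highest control exceeded control c 3.53-fold.

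Membrane traffic and the cytoskeleton account for 7 members. Snx18 (comp13676_c0), a sorting nexin of endosomes, had the steepest gradient of these, from controls of 13.3, 14.9 and 11.1 CPM to 151, 69.1 and 26.1 CPM under hypoxia. KIAA1432 (comp19946_c2), which acts on a Golgi Rab GTPase in mammals, rose from 11.7, 13.8 and 6.72 CPM to 118, 79.4 and 48.3 CPM. SH3GL1 (comp19593_c0), an endophilin of endocytosis, had level controls of 17.3, 17.5 and 17 CPM and hypoxia values of 132, 69.1 and 58.3 CPM. The others are Mgat2, a Golgi enzyme of N-glycans, VPS37A of the ESCRT-I complex, the actin-binding LIMA1 and the Rab3-binding RIMS2, with ratios of hypoxia a to c of 2.44, 2.31, 2.49 and 2.13. Hypoxia values were 312, 174 and 128 CPM in Mgat2 (comp4157_c0) and 146, 89.3 and 63.5 CPM in VPS37A (comp14951_c0), and 63.6, 38.4 and 25.6 CPM in LIMA1 (comp14034_c0) and 20, 14.6 and 9.37 CPM in RIMS2 (comp17653_c0). Their highest controls were 75.2, 31.4, 12.5 and 5.98 CPM in that order, below every hypoxia pool. Of the remaining 3 members, FAM195A (comp7929_c0) measured 50.3, 39.7 and 17.7 CPM under hypoxia and the ankyrin repeat gene ankrd34b (comp15049_c0) 9.77, 5.13 and 2.88 CPM. The component named pol (comp20193_c0), which the annotation calls an arylsulfatase, measured 30.2, 14.5 and 12.7 CPM, and its name and annotation disagree. The highest controls of these 3 were 11.5, 1.78 and 6.17 CPM.

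Over all 40 members the ratio of hypoxia a to c ran from 2.06 to 7.32 with a median of 2.65. It was at least 3 in 16 members and at least 5 in 7, namely BCAT1, acsbg2, CERS2, nr4a1, Snx18, PCYT2 and adss. Every lower bound of the counting interval stayed above 1.5. Hypoxia c, the lowest of the 3, was still 1.66 to 7.55 times the control mean, and hypoxia a was 3.98 to 47.6 times it. Summed over the members, the level was 2120.3, 2204 and 1489.6 CPM in the control pools and 14828, 9483 and 5309 CPM in the hypoxia pools. In these bulk pools fewer cells that express a gene and less RNA per cell cannot be told apart.

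In edgeR's quasi-likelihood test of hypoxia against control, 39 of the 40 members were called higher at an adjusted p under 0.05, beside 4.56% of the 25415 components tested, of which 1.8% were called lower (458 components, or 798 with the letter as a replicate block). The rule used that contrast, so nothing is read from the count, and the member not called was mknk2. With control a left out the count fell to 11, and with control b left out to 12. It was 34 without control c, and 29, 27 and 40 when hypoxia a, hypoxia b or hypoxia c was left out. Over all components, 1159 were called higher in the main fit. Without control a, b or c it was 338, 430 and 1040, and without hypoxia a, b or c 596, 607 and 1337. The fitted log2 fold changes had a median of 2.36 and ran from 1.51 for RIMS2 (SE 0.29, n = 3 pools a group) to 4.73 for nr4a1 (SE 0.75).

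**Figure D2:**
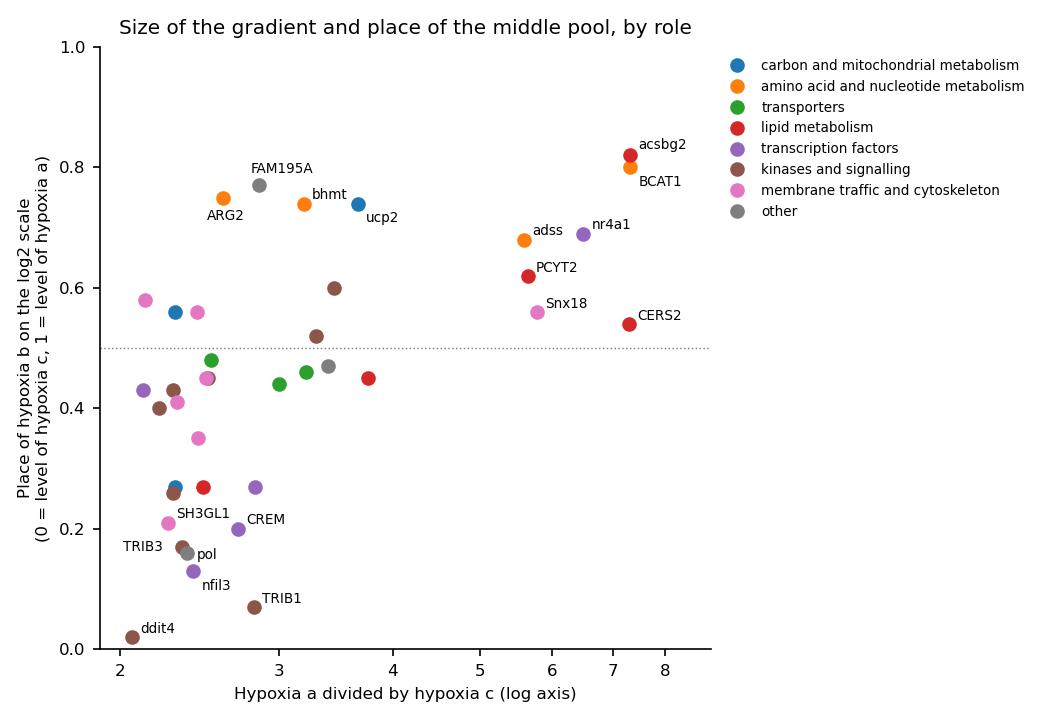
Ratio of hypoxia a to hypoxia c (log axis) against the place of hypoxia b between them on the log2 scale, where 0 is the level of pool c and 1 that of pool a; each point is 1 of 39 members, coloured by role. The 4 amino acid and nucleotide genes shown lie at 0.68 or above, and ddit4, TRIB1, nfil3, pol and TRIB3 lie under 0.2.

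Where hypoxia b fell between the ends was not part of the rule, beyond its being between them. On the log2 scale from pool c (0) to pool a (1), it lay at 0.02 in ddit4 and at 0.82 in acsbg2, with a median of 0.455. It was under 0.3 in 11 members and over 0.7 in 6. By role the median was 0.74 in the 5 amino acid and nucleotide genes, 0.56 in the 3 of carbon metabolism and 0.54 in the 5 of lipid metabolism. It was 0.46 in the transporters, 0.45 in membrane traffic, 0.40 in the 9 kinases and signalling genes and 0.27 in the 5 transcription factors. Hence pool b was close to pool a in BCAT1 (0.80), ARG2 (0.75), bhmt (0.74) and ucp2 (0.74), and close to pool c in TRIB1 (0.07), nfil3 (0.13), TRIB3 (0.17) and CREM (0.20). With 1 library in each pool there is no test of these differences, and the roles were assigned after the values were seen.

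The order of the control pools was free to vary. Among the members 16 had the control order b, a, c and 13 the order a, b, c, so control c was the lowest in 29 of 40. The same 2 orders took 32.4% and 29.7% of the 6726 other named components with at least 5 CPM under hypoxia. The median log2 ratio of control a to control c was 0.38 in the members and 0.23 in the other named components tested, while that of hypoxia a to c was 1.41 and 0.02. The rule had set hypoxia a of the members at 2 times hypoxia c or more. It had also kept out components with a control pool above hypoxia c. The medians of the members and of the other components are therefore not comparable. Controls agreed within 1.5-fold in 17 members, among them BCAT1, PCYT2, SH3GL1 and bhmt. In 8 members control a was at least 2 times control c, and the largest such ratios were 3.93 in TRIB1, 3.64 in nr4a1, 3.32 in mknk2 and 3.12 in ucp2.

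Each hypoxia pool was also divided by the control pool of the same letter. Deviations from the group mean correlated by 0.20 to 0.33 between pools of a letter, and by up to 0.20 between other letters. The median of that ratio over the members was 7.81 for a, 4.52 for b and 3.32 for c. Taken this way, 26 of the 40 ran in the order a, b, c and 23 had a at least 2 times c. The rule had put the hypoxia values of these ratios in that order, so the counts are no independent check of it. The steepest were BCAT1, with ratios of 12.2, 7.94 and 1.68, ankrd34b with 10.4, 5.3 and 1.62, and PCYT2 with 20.9, 9.93 and 3.34. In other genes with a low control c, pools b and c changed places. Pck1 gave 5.86, 3.82 and 4.81, ucp2 18.6, 14.3 and 15.9, and ddit4 4.01, 2.27 and 3.71. In 3 members, mknk2, TRIB1 and arid3a, the ratio was higher for c than for a. For these genes hypoxia c was low in level but not in its distance from control c.

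The a, b, c order was the most frequent among named components separated from control. Of 306 named components with at least 5 CPM whose hypoxia pools were separated from control by 1.5 times, 155 (50.7%) followed it, a number that includes the genes chosen for this order, against 8 to 47 in each of the other 5 orders and 31 in the reverse order. Without the members it was 115 of 266 (43.2%), and among all named components with at least 5 CPM it was 33.2%, also the largest share of the 6 orders. Applying the full thresholds with each other order of the letters found 5 named components, against 44 for a, b, c. They were PHF20L1, PRC1, Clk4 and the retroelement names TY3B-I and pol (comp19892_c1), and 4 of the 5 were highest in pool c. Over all components tested, hypoxia a was at least 2 times c in 6.12% and c at least 2 times a in 13%. The median log2 ratio of hypoxia a to c was -0.07 over all components tested and 0.24 over the separated named components that are not members.

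The 5 HIF reference genes were raised in all hypoxia pools without a 2-fold gradient. The prolyl hydroxylase EGLN3 (comp17165_c0) measured 133, 133 and 138 CPM in the hypoxia pools, ldha (comp5908_c0) 51.7, 55.8 and 61.1 CPM, and the collagen prolyl hydroxylase subunit P4HA1 (comp18867_c1) 16.4, 16.4 and 21 CPM. The hormone gene epo (comp7521_c0) measured 48.4, 35.1 and 52.9 CPM, and ndrg1 (comp8016_c0) was the only one of the 5 reference genes in the order a, b, c, with 248, 164 and 139 CPM. Among named components with a mean of at least 5 CPM under hypoxia that are not members, 46 had a lowest hypoxia pool at least 4 times the highest control. In 30 of these the hypoxia pools agreed within 1.5-fold. Genes with a 2-fold gradient in this order could not be among the 46 except those left out by name. The small number with pool a at least 2 times pool c (3, Ppm1k and TDH among them) is therefore fixed by the choice. The members reached that separation in 4 cases, among them ATF2, ucp2 and Kndc1.

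**Figure D3:**
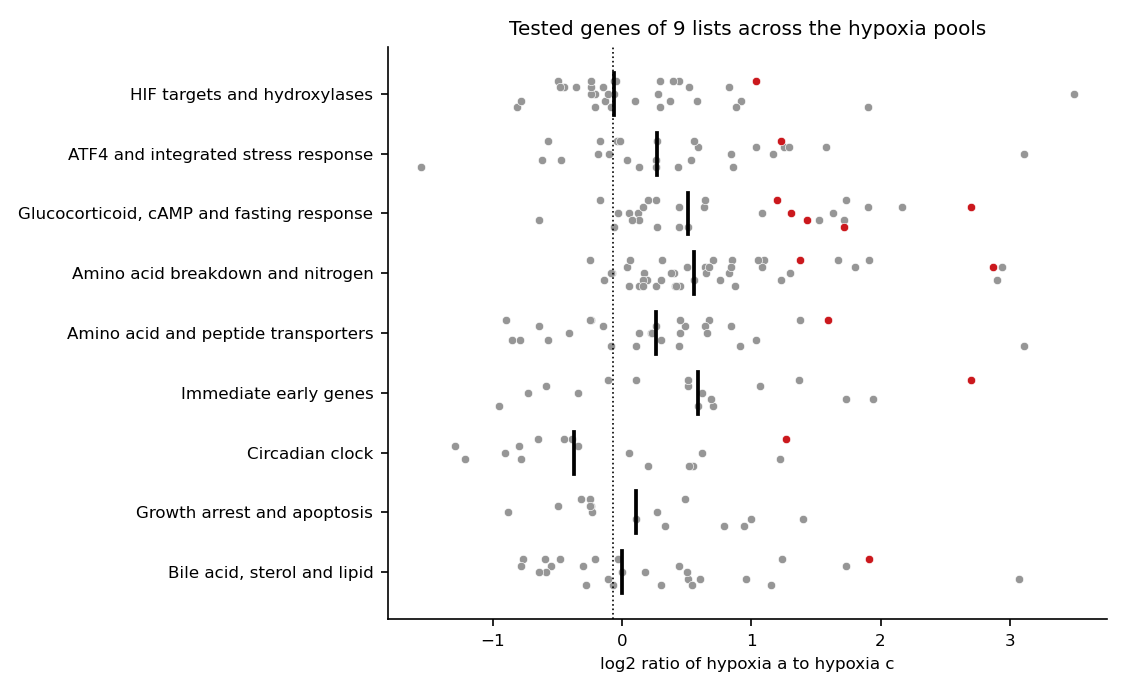
log2 ratio of hypoxia a to hypoxia c for the tested genes of 9 lists, with members in red, other genes in grey, the median of each list as a black bar and the median of all components tested (-0.07) as a dotted line. The members lie at the right of their lists by construction, and the medians of the lists run from -0.37 for the clock to 0.59 for immediate early genes.

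Lists of related genes were followed across the same pools, under hypoxia and in control. Over all components tested, 21.6% followed the order a, b, c, and the median log2 ratio of a to c was -0.07 under hypoxia and 0.16 in control. Of named components with at least 5 CPM, 33.2% followed it. For the counts of calls in each list, 4.56% of all components tested were called higher and 1.8% lower. In the list of HIF targets and hydroxylases 33 genes were tested, 22 were called higher and none lower, 12 followed the order a, b, c and the median log2 ratio of a to c was -0.06 under hypoxia and 0.18 in control. Its 1 member was ddit4. PFKFB4 and Igfbp1 of this list also ran in the order a, b, c, with ratios of hypoxia a to c of 11.3 and 3.74, and were not called. In the list of glucocorticoid, cyclic AMP and fasting genes 29 were tested, 10 were called higher and 1 lower, 19 followed the order and the median was 0.51. The controls of this list were tilted at least as much, with a median of 0.61 for control a to c. Its members were Pck1, nr4a1, LPIN1, CREM and sgk1, and with these set aside the median of the other 24 was 0.35. The other called genes of the list differed in grading. NR4A3 (comp5056_c0) measured 1.93, 1.23 and 0.582 CPM under hypoxia, a ratio of a to c of 3.32, below the mean level of the rule. ANGPTL4 (comp7721_c0) ran in the reverse order, with 228, 297 and 355 CPM. PPARA (comp19837_c0), a receptor for fatty acids, measured 258, 245 and 225 CPM under hypoxia against at most 13.6 CPM in control. G6PC (comp11983_c0), the glucose 6-phosphatase of gluconeogenesis, was called lower, from 2944, 3031 and 1995 CPM to 1378, 1104 and 893 CPM, in contrast to Pck1. Among the genes of the list that were not called were FKBP5, Tsc22d3, Klf9, Per1 and Tat. Their log2 fold changes against control were 0.22, -0.61, -0.10, -0.22 and 0.39. Their ratios of hypoxia a to c were 3.09, 2.11, 2.88, 1.04 and 1.55, so the first 3 had a 2-fold gradient. The control pools of these 3 fell from a to c as well. They measured 336, 288 and 163 CPM in FKBP5, 256, 249 and 178 CPM in Tsc22d3 and 79.4, 70.4 and 39.9 CPM in Klf9. Of the 29 tested genes, 12 had hypoxia a at least 2 times c, beside 6.12% of all components tested. The rule had fixed this for the 5 members among them. In the other lists, members included, the count was 12 of 43 for amino acid breakdown, 7 of 27 for ATF4 and 5 of 17 for immediate early genes. It was 5 of 27 for bile acid, sterol and lipid, 4 of 29 for transporters and 3 of 33 for HIF. For the clock it was 2 of 16 and for growth arrest 1 of 15. No such count was made for the controls of the lists.

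In the list of amino acid breakdown 43 genes were tested, 7 were called higher and 1 lower, 30 followed the order a, b, c and the median log2 ratio of hypoxia a to c was 0.56. BCAT1 and ARG2 are its members, the genes left out by name include 3 others of its called genes, and the median of the 41 non-members was 0.50. Control pools of this list were tilted the same way, with a median log2 ratio of control a to c of 0.36. In glutamate dehydrogenase (glud1, comp15731_c0), for example, the control pools measured 644, 679.8 and 457 CPM and the hypoxia pools 907, 713 and 429.7 CPM, without a call. The transporter list had 29 tested genes, 3 called higher, 13 in the order and a median of 0.26 under hypoxia and 0.44 in control. The list of ATF4 and the integrated stress response had 27 tested genes, 5 called higher, 14 in the order and a median of 0.27 under hypoxia and 0.24 in control, with TRIB3 as its member. The message of atf4 itself (comp14176_c0) measured 337, 339 and 309 CPM under hypoxia and was not called.

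Immediate early genes numbered 17, of which 5 were called higher and 1 lower, 9 followed the order and the median was 0.59 under hypoxia and 0.74 in control. The clock list, with nfil3 as its member, leaned the other way, with 5 of 16 genes in the order a, b, c, 7 in the order c, b, a and a median of -0.37, against 0.30 in control. In the list of bile acid, sterol and lipid genes, with Pnpla2 as its member, 9 of 27 followed the order and the median was 0.00 to 2 decimals under hypoxia and 0.48 in control. In that of growth arrest it was 7 of 15, with no member and a median of 0.11 under hypoxia and 0.42 in control. In all, 12 members belong to one of the 9 lists. In the deposited pathway annotation 21 members have no pathway, and the most shared entries were MAPK signaling with 3 members of 303 tested components and PPAR signaling with 3 of 104.

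**Figure D4:**
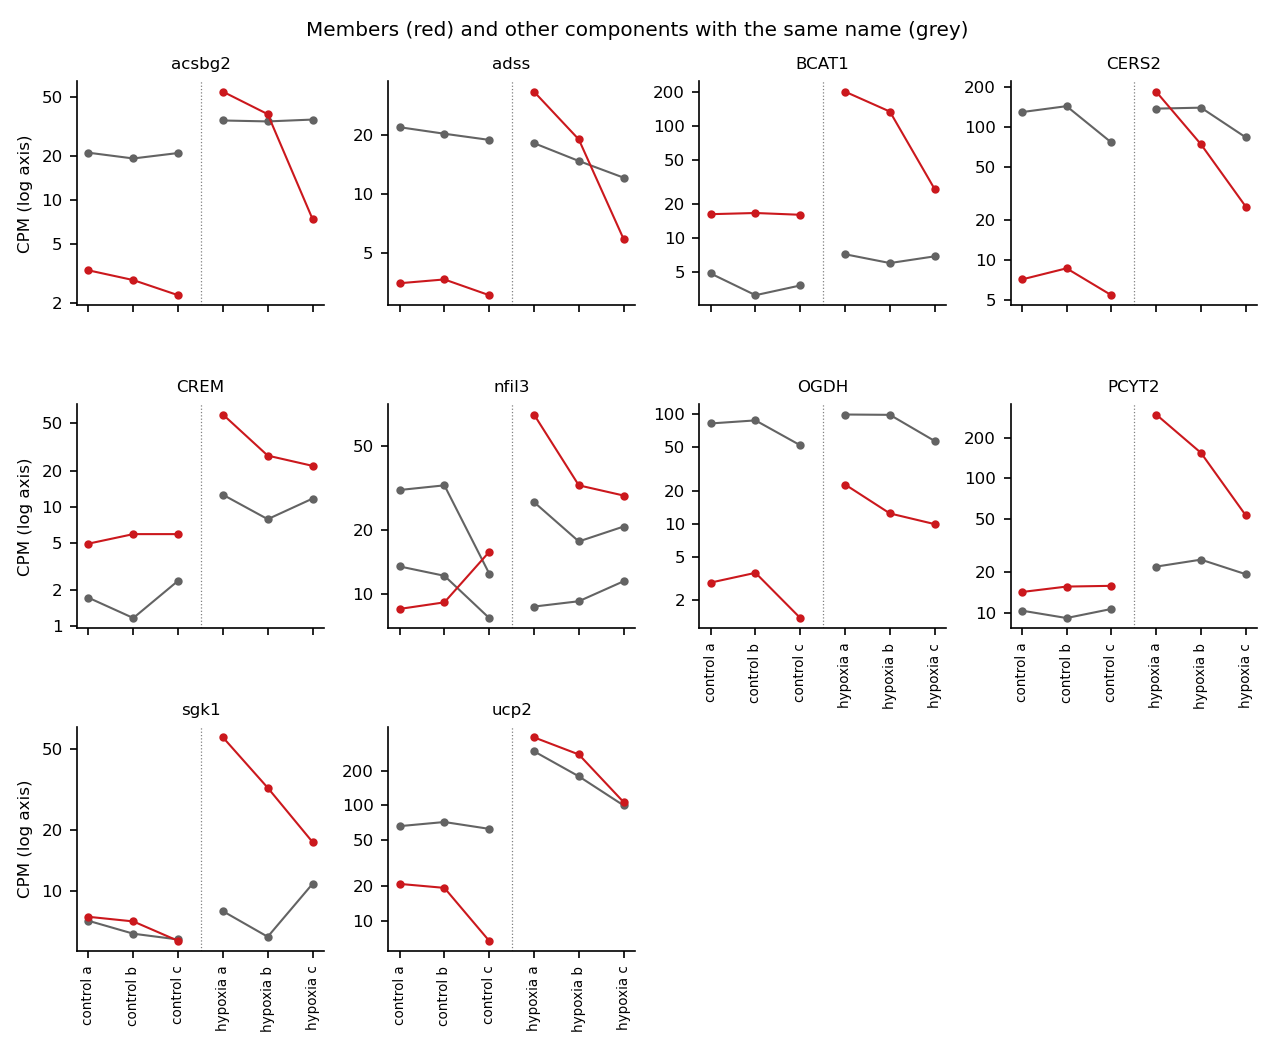
CPM (log axis) in the 6 pools of members (red) and of other components that share their name and reach 5 CPM under hypoxia (grey), for 10 names. Red points fall from hypoxia a to hypoxia c by the choice of members, whereas grey points fall by less than 2-fold, or not at all, in all names but ucp2.

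Components that share a name with a member allowed a look at related transcripts that the rule did not take. There are 44 such components over 21 names, 38 were tested and 16 reached 5 CPM under hypoxia. Of these 16, 5 ran in the order a, b, c, 1 did so with a 2-fold gradient, and their median log2 ratio of hypoxia a to c was 0.15. Called higher were 5 and lower none, beside 4.56% and 1.8% of all components tested. The limit of 5 CPM was set on the hypoxia pools only. It left out a pol component (comp13521_c0, hypoxia mean 2.67 CPM) that was called lower, with a log2 fold change of -0.96. It also left out NR4A1 (comp10891_c1) and SIK2 (comp210735_c0), both called higher and with a 2-fold gradient in the order a, b, c. These measured 1.6, 0.474 and 0.398 CPM and 1.03, 0.837 and 0.459 CPM under hypoxia. CERS2 (comp13986_c0), at 138, 140.3 and 83.9 CPM under hypoxia, was close to its controls of 129.9, 144 and 76.8 CPM and far above the member of that name in control. The second PCYT2 (comp17415_c0) measured 22.1, 24.9 and 19.4 CPM under hypoxia and the second CREM (comp16593_c0) 12.6, 7.87 and 11.7 CPM, and both were called higher without a gradient. The second acsbg2 (comp20204_c0), at 34.6, 34.1 and 35.1 CPM, was level and called higher. The second sgk1 (comp15967_c0), at 7.91, 5.91 and 10.8 CPM, was not called. Of the 16, the one component with a like gradient was the second ucp2 (comp8696_c0), at 295, 179 and 100.1 CPM against controls of 66.2, 71.9 and 62.7 CPM. In the RefSeq annotation of this species, 9 member names have an a and a b copy, and reads that near-identical copies share could be split between components, so that such levels are uncertain.

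**Figure D5:**
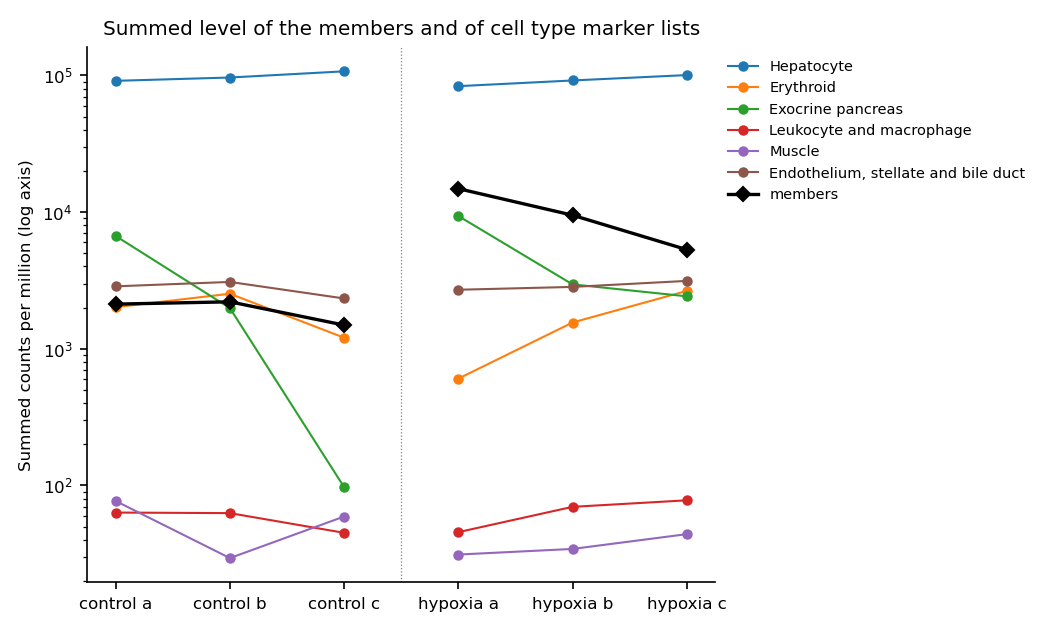
Summed CPM (log axis) of the members (black diamonds) and of 6 lists of cell type markers in each pool; lines join pools of 1 group. Exocrine pancreas markers fall from a to c in both groups, erythroid markers rise from hypoxia a to c, and hepatocyte markers stay between 83363 and 107013 CPM.

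Markers of other cell types also differed between the pools. The 12 components of 10 exocrine pancreas markers (tissue that lies within or beside the liver of many bony fish) summed to 6681, 1983 and 97.2 CPM in the control pools and to 9357, 2956 and 2418 CPM in the hypoxia pools, and 10 of the 12 ran in the order a, b, c under hypoxia. The 13 erythroid components summed to 2014, 2526 and 1204 CPM in control and to 604, 1555 and 2649 CPM under hypoxia, and 11 of them ran in the opposite order to the members. The leukocyte list summed to 45.5, 69.7 and 77.8 CPM in the hypoxia pools, with 8 of its 14 components in the order c, b, a, and its controls were 63.3, 62.7 and 45 CPM. The muscle list lay between 29.4 and 76.9 CPM and the endothelial, stellate and bile duct list between 2332 and 3135 CPM. That last sum hides differences between single components. Under hypoxia COL1A2 (comp9385_c0) measured 1.96, 22.3 and 0.0613 CPM and COL3A1 (comp17368_c1) 1.45, 18.6 and 0 CPM. The abundant COL1A1 (comp19702_c0) measured 454, 587 and 795 CPM. Of the 41 components of this list, 4 ran in the order a, b, c and 7 in the order c, b, a. None of the members is in a marker list. For the pancreas list the rule had fixed this, since it kept out components with a control pool above hypoxia c. All pancreas components had control a above hypoxia c, such as CEL (1119.9 and 417 CPM) and Cpa1 (1395 and 547 CPM). Across the controls the pancreas sum fell 68.7-fold from a to c. The median log2 ratio of control a to c was 0.38 in the members. Because of the rule, these control values are not comparable. Whether the share of pancreas, blood or leukocytes in a pool has a part in the gradient under hypoxia was not tested.

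Small RNA libraries carry the same letters and were not used by the rule. Of 186 mature sequences with at least 5 CPM under hypoxia, 24 ran in the order a, b, c and 73 in the order c, b, a. With a 2-fold gradient there were 7 and 31, and none in either order, or in any of the other 4 orders, was also separated from control as the members are. The 7 are shown because they are the small RNAs that share the members' order across hypoxia pools. They are written 5′ to 3′ from the deposited sequences, in DNA letters, with the seed (bases 2 to 8) in capitals and with the names given in the deposited table:
csa-miR-216b: tAATCTCTgcaggcaactgtga
pma-miR-216b_R-1_1ss1AT: tAATCTCTgcaggcaactgtgg
bta-miR-217_R-1: tACTGCATcaggaactgattgga
oha-miR-204-5p: tTCCCTTTgtcatcctatgcct
ssa-miR-33b-3p_R-2: cAATGTTCctgcagtgcaa
hsa-miR-146b-5p_R-3: tGAGAACTgaattccatag
mml-miR-6134_R+3_1ss18GT: tGAGGTAGtaggatgtatagtt

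Both miR-216b sequences share 1 seed, and the other 5 seeds differ from it and from each other. MiR-216b and miR-217 are known as pancreas-enriched in vertebrates. The first miR-216b measured 418, 116 and 22.9 CPM in control and 504, 269.9 and 114 CPM under hypoxia, and miR-217 measured 622, 162 and 28.7 CPM and 510.4, 284 and 166 CPM. They were thus graded in both groups, as the exocrine pancreas mRNAs were. In 6 of the 7, control a was at least 2 times control c, the exception being the sequence named miR-6134 with 12.5, 21.9 and 7.96 CPM. Among the member mRNAs the control ratio of a to c was at least 2 in 8 of 40. The rule kept out mRNAs with a control pool above hypoxia c, and the 7 small RNAs passed no such filter. These shares are therefore not comparable.

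The values next to each threshold were as follows. By the ratio of hypoxia a to c, ddit4 (2.06) and arid3a (2.12) were just inside, and the histone demethylase KDM6B (1.98) and ARHGEF15 (1.96) just outside. By separation from control, Pnpla2 and FAM195A (1.53 each) were inside, and MNT and the amino acid transporter slc38a2 (1.49 each) outside. The latter measured 43.3, 40.3 and 21 CPM in control and 555, 211 and 64.5 CPM under hypoxia, a steeper gradient than that of any member. By mean level, ankrd34b (5.93 CPM) and nr4a1 (6.26 CPM) were inside, and RAPH1 (2.26 CPM) and PERK9 (1.75 CPM) outside. Of the named components, 111 missed the rule by the gradient alone, 306 by the separation alone and 14 by the mean alone. The minimum level is per component and not per length, and 37 of the members fell in the longest of 3 equal classes of effective length, whose median log2 ratio of hypoxia a to c was 0.02 over all its tested components.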

How the data were processed

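Liver mRNA of 3 control and 3 hypoxia pools was described, with the small RNA libraries of the same letters. Per the submitters' processing notes, the authors' tools included Bowtie, DESeq and RSEM 1.2.3; the mRNA reads were assembled without a genome, per the labels' protocols. The deposited mRNA table holds expected counts per assembled component and an effective length in bases, from which TPM was computed here, and that of small RNA, also as deposited, gives unscaled expected counts for mature sequences. CPM were computed by column totals. Of 613 small RNA entries, 545 are distinct sequences and 471 have distinct values. No sequence of the assembled components was at hand, so none is printed.

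Rounded counts were tested in edgeR 4.0.16 (R 4.3.3; TMM, filterByExpr, quasi-likelihood, Benjamini-Hochberg over 25415 components, adjusted p under 0.05), with DESeq2 1.42.0 as an alternative, and the fit was tested on simulated data. Tables were made with pandas 2.3.3 and intervals with scipy 1.17.1, and gene copies were looked up by name in RefSeq. Intervals and floors cover counting error only.

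The members and gene lists were chosen with earlier results of these data known. Of the 40 members 39 are named and 1 is not reported here; also named are the 2 components on either side of each threshold and 5 HIF reference genes by rule; other genes were picked after their values were seen. Deviations from group means, at a pseudocount of 0.5 CPM, correlated across genes by 0.20, 0.22 and 0.33 between pools of the same letter (a, b, c) and by -0.31 to 0.20 between other letters; genes are not independent replicates, and both groups came from the same 3 aquaria, per the labels.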

Additional observations from a re-analysis of the deposited data

How the results depend on the processing

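The number of members moved with the thresholds that define them: 78 at a gradient of 1.5, 16 at 3, 93 at a separation of 1 and 25 at 2. It was 39 under TMM library sizes, DESeq2 size factors and TPM, with 35, 33 and 36 of the 40 among them. Leaving out 1 library at a time gave 12 to 49, the lowest without hypoxia a and 19 without hypoxia c, of which 11 are members. Without control c and hypoxia c together, an alternative chosen after the data were seen, 21 were found and 11 are members. Summing components of 1 name left 31. The median log2 ratio of hypoxia a to c stayed between 1.33 and 1.52 under 4 alternatives. With the letter as a replicate block, 40 members were called and their median log2 fold change was 2.23, and over all components the calls went from 1159 to 1695 higher and from 458 to 798 lower. Without 1 library in turn the members called ran from 11 to 40 and the median log2 fold change from 1.82 to 2.62. Over all components, 338 to 1337 were called higher in these fits. All 11 fits left every member higher in hypoxia, a direction that the rule had fixed, and 9 members were called in each of them. How many of all components were called in every fit was not counted, so nothing is read from the 9. The cause of the lost calls was not tested. The smallest count behind a member's value was 4, in nr4a1 in control c.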

Other observations

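Some named genes with a mean of at least 5 CPM in control showed the reverse pattern, lower in every hypoxia pool than in any control by 1.5 times. They rose in order from hypoxia a to c, with c at least 2 times a. There were 4, and 3 are given here: the clock repressor Nr1d1 (comp16984_c0), with 41, 31.4 and 18 CPM in control and 3.65, 4.13 and 8.91 CPM under hypoxia, TMEM26 (comp9895_c0), with 38.8, 35.7 and 31.9 CPM and 7.36, 11.8 and 20.8 CPM, and the kinase DAPK2 (comp17281_c0), with 14.6, 12.1 and 18.7 CPM and 3.18, 7.11 and 7.26 CPM. In these 3, as in the members, the thresholds themselves fixed hypoxia a as the pool farthest from the controls. The number of named genes that lay below control by 1.5 times in any order was not counted, so nothing is read from the 4.

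Some genes of the lists were graded more steeply than any member but overlapped with the controls in pool c. In the HIF list this held for PFKFB4 (comp4033_c0), which sets the level of an activator of glycolysis. It measured 54.8, 62.9 and 21.3 CPM in control and 409, 232 and 36.1 CPM under hypoxia. FASN (comp20074_c0), the fatty acid synthase, measured 48.4, 44 and 18.7 CPM and 379.8, 187 and 45.1 CPM. In both, hypoxia c lay inside the range of the controls.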
